A study of Mus musculus with 12 samples.

Results

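The comparison described here is between IMQ-treated and untreated skin of *Ahr*-/- mice, which lack the aryl hydrocarbon receptor (AhR) in every cell. Its members were chosen by their labels alone and comprised 6 of the 12 arrays of the study, 3 labelled as untreated *Ahr*-/- skin (day 0) and 3 as *Ahr*-/- skin after IMQ (day 2). All 18193 genes that could be named from 1 probe set or more were compared, each by the probe set with the highest mean signal over the 12 arrays. IMQ is imiquimod, a ligand of Toll-like receptor 7, given daily as a cream to shaved dorsal skin. The untreated mice received no cream, so imiquimod, its cream and the handling of the skin cannot be told apart. The remaining 6 arrays held skin of *Ahr*+/- littermates, 3 untreated and 3 after IMQ. These littermates keep 1 functional allele and are therefore not wild type. Their values are described mainly where a response in *Ahr*-/- skin differed from theirs. All 12 arrays shared 1 estimate of the spread, so the *Ahr*+/- arrays also entered the standard errors and calls for *Ahr*-/- skin. The age and sex of the mice were not given in the sources used here. The labels call the arrays biological replicates, without saying which animal each came from. All arrays measured RNA of whole skin, in which fewer cells of a type and less RNA per cell cannot be told apart.

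Imiquimod cream brings about a psoriasis-like inflammation of mouse skin in which keratinocytes divide faster, express the keratins of wounded epidermis and release chemokines, while neutrophils enter the tissue. AhR is a ligand-activated transcription factor that partners with ARNT, induces the xenobiotic enzymes of the CYP1 family and its own repressor AHRR, and is expressed by keratinocytes, Langerhans cells, fibroblasts and several kinds of lymphocyte in skin. In the epidermis, basal cells carry KRT5 and KRT14, the layers above carry KRT1 and KRT10, and the outermost cells build the cornified envelope from loricrin, small proline-rich (SPRR) and late cornified envelope (LCE) proteins.

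Array medians lay between 7.38 and 7.56 on the log2 scale, and no pair of arrays held identical values. A pair of the *Ahr*-/- IMQ arrays stood apart. For *Gapdh*, the signal of the 3′ control probe set minus that of the 5′ one on the log2 scale, which grows as RNA is degraded or incompletely copied, was 1.17 in *Ahr*-/- IMQ replicate 1 and 1.52 in replicate 2, against 0.28 in replicate 3 and 0.14 to 0.53 on the other 9 arrays. The same difference for *Actb* was 1.33, 1.58 and 0.58 in the 3 *Ahr*-/- IMQ arrays, and 0.61 to 1.08 elsewhere. Counts are therefore given with all 3 arrays and also with replicate 3 as the only *Ahr*-/- IMQ array, in which case that array was assumed to vary like the other groups. The part of this RNA difference in the results was not tested. The tissue label was borne out by *Krt5*, the keratin of basal cells, at 12.99 to 13.40 on the untreated *Ahr*-/- arrays, and by *Krt10*, the keratin of the layers above, at 14.43 to 14.51. *Ahr* itself read 11.37, 11.29 and 11.44 on the untreated *Ahr*-/- arrays and 9.74, 9.07 and 9.87 on the *Ahr*-/- IMQ arrays. Where its probe set lies relative to the deleted part of the gene was not determined, so this signal does not check the genotype. It was lower after IMQ by a log2 fold change of -1.81 (SE 0.29, adjusted p = 0.000762), and the adjusted p was 0.0498 with replicate 3 alone.

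After IMQ 4130 genes differed in *Ahr*-/- skin, and the largest changes were in epidermal differentiation genes, neutrophil chemokines and antimicrobial proteins. A gene was called when limma's moderated test gave a Benjamini-Hochberg adjusted p below 0.05 over all 18193 genes and the fold change was at least 1.5. By this rule 1928 genes (10.6%) were higher and 2202 genes (12.1%) were lower after IMQ. With replicate 3 as the only IMQ array, 618 genes (3.4%) were called higher and 826 (4.54%) lower, of which 583 and 760 were among the calls made with all arrays. With the *Gapdh* difference of each array as a covariate, 1007 genes were higher and 1219 lower, of which 929 and 1110 were among those calls. Changes of at least 4-fold were called for 239 rises and 231 falls, and changes of at least 16-fold for 66 rises and 21 falls. In 4049 of the 4130 called genes the 3 untreated and the 3 IMQ arrays did not overlap, as in 42.7% of all genes. The median log2 fold change of all genes was 0.07.

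The 15 largest rises were picked among called genes whose untreated and IMQ arrays did not overlap. They measured 150-fold to 895-fold and fell into a few families. *Sprr1b*, *Sprr2d* and *Sprr2h* encode cornified envelope precursors, and *Krt6b* a keratin of wounded epidermis. *Cxcl2*, *Cxcl3* and *Cxcl5* encode chemokines that attract neutrophils. *S100a8*, *S100a9*, *Lcn2* and *Saa3* encode antimicrobial and acute phase proteins. *Stfa2l1*, *Clec4d* and *Chil3* are expressed by myeloid cells, and *2610528A11Rik* encodes a ligand of the receptor GPR15. The 15 largest falls, picked in the same way, ran from a log2 fold change of -4.20 for *Thrsp*, a regulator of fat synthesis, to -6.99 for *Skint10*. *Skint10* is a member of an immunoglobulin-like family of epidermis and thymus. By the mean of all its probe sets *Thrsp* changed by only -2.37. By that mean *Hamp2* (-4.31), *Aqp4* (-4.31) and *Serpina12* (-4.41) changed by -1.96, -2.08 and -2.82. The log2 signal of *Skint10* was 11.19, 10.98 and 10.85 before IMQ and 3.44, 3.33 and 5.27 after it. *Lce1m*, a late cornified envelope gene, read 12.61, 12.51 and 11.98 before and 5.74, 5.48 and 5.47 after, a change of -6.81 (SE 0.41, adjusted p = 7.32e-07). For both genes every untreated array lay far above every IMQ array. Others among these falls were *Krt77* (-6.51), *Akr1c14*, an aldo-keto reductase of steroid metabolism (-5.78), *Mgl2*, a lectin of dermal dendritic cells and macrophages (-5.61), *Serpinb7* (-5.31), *Dapl1* (-5.19) and *Mt4*, the metallothionein of stratified epithelium (-4.69). With replicate 3 alone all 15 rises and 14 of the 15 falls were still called, the exception being *Aqp4*. Signals close to the top of the scale, where the brightest probe set of each array read 14.75 to 14.92, compress differences, so the changes of *Krt6b*, *S100a8* and *S100a9* are likely understated. The same holds at the dim end, where the untreated signals of *Sprr1b* (3.19 to 3.36), which had the 895-fold change, lay below the 10th percentile of the arrays (3.90 to 4.25).

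**Figure D1:**
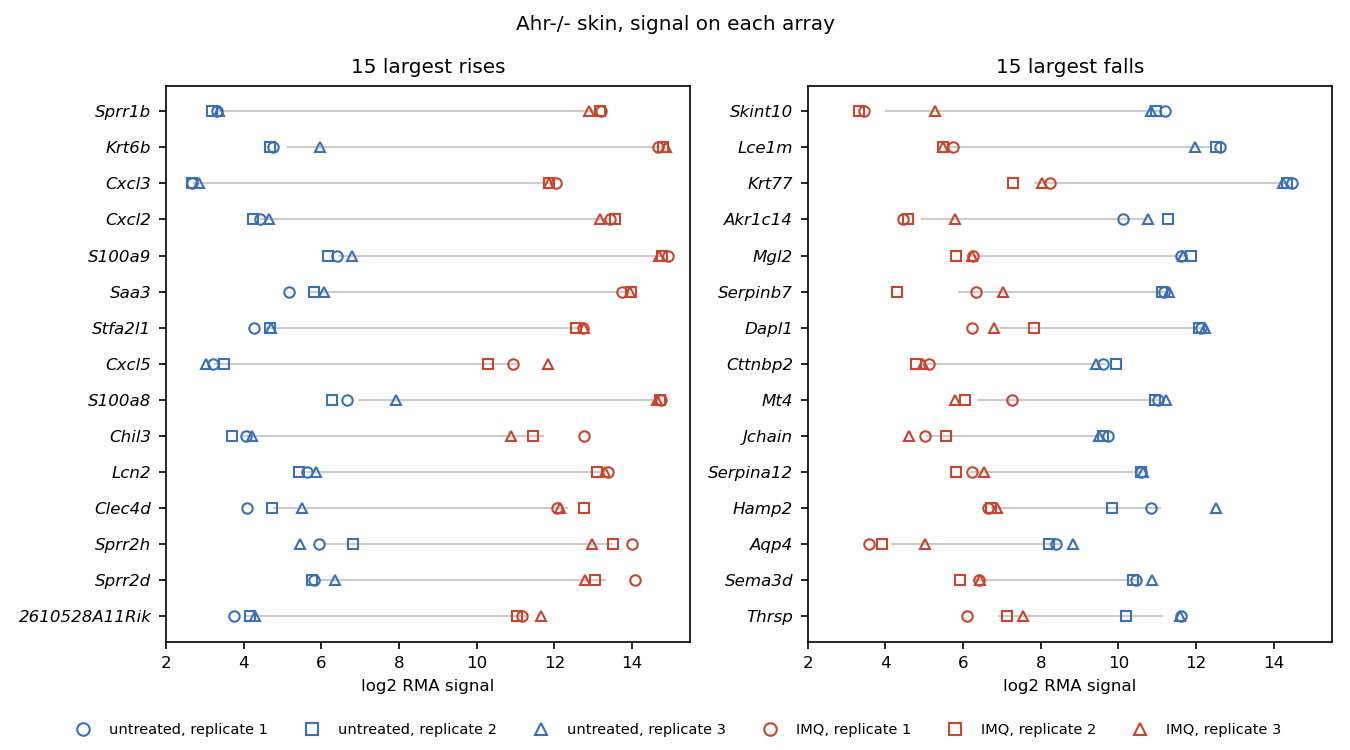
Log2 signal of the 15 genes with the largest rise (left) and the 15 with the largest fall (right) among the called genes of *Ahr*-/- skin, with 1 point for each of the 3 untreated and 3 IMQ arrays. All 30 genes were picked from those whose 2 groups are separate. *Sprr1b* moved from between 3.19 and 3.36 to between 12.90 and 13.21, and *Skint10* from between 10.85 and 11.19 to between 3.33 and 5.27.

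The epidermal genes changed by family. Of 9 measured SPRR genes 7 rose and none fell, also with replicate 3 alone, and the median log2 fold change of the 9 was 6.56. *Sprr1b* read 3.31, 3.19 and 3.36 on the untreated arrays and 13.21, 13.17 and 12.90 on the IMQ arrays, a change of 9.81 (SE 0.19, adjusted p = 1.37e-11). *Sprr2h* went from 5.95, 6.82 and 5.44 to 14, 13.5 and 12.98, and *Sprr2d* from 5.81, 5.77 and 6.35 to 14.07, 13.04 and 12.78. For all 3 genes, the lowest IMQ array lay more than 6 log2 units above the highest untreated one. Among the keratins of wounded or rapidly dividing epidermis, 5 of 7 rose. *Krt6b* read 4.75, 4.68 and 5.96 before and 14.68, 14.80 and 14.87 after IMQ, a change of 9.66 (SE 0.32, adjusted p = 5.71e-09). *Krt16* rose by 6.60, from 7.34 to 7.96 up to 14.15 to 14.33, and *Krt6a* by 3.50. *Krt17* is nominally a member of the same group, at 1.04, but its call was lost when *Ahr*-/- IMQ replicate 2 or other single arrays were left out. SPRR2 genes, *Krt6a* and *Krt6b*, and LCE1 genes have close copies whose RNA can bind the same probes, so the share of each copy is uncertain.

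**Figure D2:**
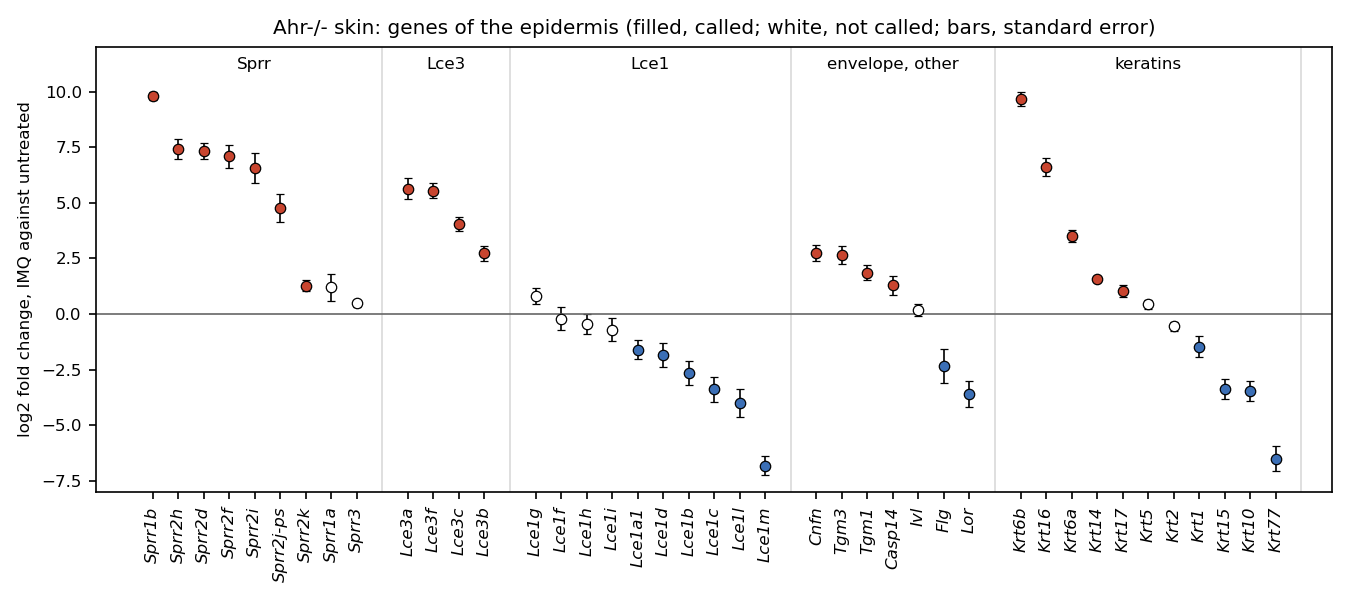
Log2 fold change after IMQ in *Ahr*-/- skin, with its standard error, for listed genes of the small proline-rich, LCE3 and LCE1 families, other envelope genes and 11 keratins. Filled points are called genes and white points genes that were not called. All SPRR and LCE3 points lie above 0 and all but 1 of the LCE1 points below it, and *Krt6b* (9.66) and *Krt77* (-6.51) mark the ends of the keratins.

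The SPRR genes that rose most are shown with the bases before their start sites because 3 of them share a motif. In the promoter table (RefSeq, GRCm38.p6), windows from 250 bases before to 50 bases after the start of each gene were searched on both strands for the AP-1 motif TGANTCA and the NF-kB motif GGANTTTCC. Of the 15 largest rises 13 had a window in the table. The AP-1 motif was in 3 of those 13 windows and in 7.8% of all 32851 windows. It began 111 bases before the start of *Sprr1b* (chr3:92438780-92439029, minus strand), 198 before *Sprr2h* (chr3:92385435-92385684, plus strand) and 193 before *Sprr2d* (chr3:92338890-92339139, plus strand). The 250 bases before each start are printed 5′ to 3′ with the motif in capitals. A match describes the letters and does not show that a factor binds there.
Sprr1b: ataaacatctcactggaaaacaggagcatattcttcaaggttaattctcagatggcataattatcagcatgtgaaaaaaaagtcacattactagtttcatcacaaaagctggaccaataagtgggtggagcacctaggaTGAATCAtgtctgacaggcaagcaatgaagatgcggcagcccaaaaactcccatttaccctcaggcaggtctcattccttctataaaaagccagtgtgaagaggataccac
Sprr2h: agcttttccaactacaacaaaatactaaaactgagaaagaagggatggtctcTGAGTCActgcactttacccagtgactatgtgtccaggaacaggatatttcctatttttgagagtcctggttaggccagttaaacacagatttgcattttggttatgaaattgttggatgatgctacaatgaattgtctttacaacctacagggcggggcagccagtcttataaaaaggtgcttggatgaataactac
Sprr2d: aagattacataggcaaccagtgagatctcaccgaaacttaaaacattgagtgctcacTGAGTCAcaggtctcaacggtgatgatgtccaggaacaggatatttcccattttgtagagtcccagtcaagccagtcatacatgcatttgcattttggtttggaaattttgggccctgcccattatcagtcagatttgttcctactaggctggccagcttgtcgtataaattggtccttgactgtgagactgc

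The cornified envelope list was split. Of 29 measured genes, 8 rose and 11 fell, with a median of -0.44. The rises were led by LCE3 genes, which belong to a cluster known from wounded and psoriatic skin. *Lce3a* read 5.37, 5.12 and 4.83 before IMQ and 12.21, 10.26 and 9.76 after it, a change of 5.64, *Lce3f* rose by 5.54 and *Lce3c* by 4.06. The cross-linking enzyme *Tgm3* rose by 2.65 and cornifelin (*Cnfn*) by 2.75. The falls were led by LCE1 genes and loricrin. *Lce1m* fell by 6.81 and *Lce1l* by 4.01. *Lor*, the main protein of the normal cornified envelope, read 14.31, 14.16 and 13.13 before and 10.29, 9.91 and 10.65 after (-3.58, SE 0.59, adjusted p = 0.000913). Its call was lost with replicate 3 alone (adjusted p = 0.0658), although the groups did not overlap. With replicate 3 alone 6 genes of this list rose and 3 fell. The count of falls was 7 without *Ahr*-/- IMQ replicate 2, and also 7 without untreated replicate 1 or without untreated replicate 2.

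Of 8 suprabasal keratinocyte genes 3 fell and none rose, with none higher at an unadjusted p below 0.05 either, and 2 fell with replicate 3 alone. The falls were all in keratins of the layers above the basal cells, while a further such keratin, *Krt2*, was dim and not called (-0.55, adjusted p = 0.0698). *Krt77* read 14.47, 14.34 and 14.25 on the untreated and 8.23, 7.28 and 8.03 on the IMQ arrays, a change of -6.51 (SE 0.56, adjusted p = 8.89e-06). *Krt10* went from 14.51, 14.44 and 14.43 to 10.74, 10.64 and 11.59 (-3.47, SE 0.45, adjusted p = 0.000172). For both keratins every IMQ array was below every untreated array, and both calls held with replicate 3 alone. *Krt1*, the partner of *Krt10*, was at -1.47, and its call was lost without *Ahr*-/- IMQ replicate 2 and without some of the other single arrays. The basal keratin *Krt14* rose by 1.58 near the top of the scale, from 13.02 to 13.24 up to 14.68 to 14.76. *Krt15*, a keratin of quiescent basal and hair follicle cells, fell by 3.35, from between 13.93 and 13.97 to 9.42, 11.22 and 11.18. *Krt5* was not called (0.43, adjusted p = 0.11).

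Genes of cell contacts, proteases and lipids of the epidermis also divided by member. In the junction list 3 of 22 genes rose and 9 fell, and with replicate 3 alone 3 rose and 7 fell. The rises were led by the gap junction genes *Gjb2*, from 6.75, 7.16 and 6.21 to 13.31, 13.39 and 12.96 (6.52), and *Gjb6* (5.36). The falls included the tight junction genes *Cldn8* (-3.17) and *Cldn1* (-1.47), the gap junction gene *Gjb5* (-2.38) and the desmosomal cadherin *Dsg1a* (-2.29). Kallikreins are serine proteases that cut desmosomes as scales are shed. Their list of 13 measured genes also held the inhibitor *Spink5* and the proteases *St14* and *Prss8*. Of the 13 genes 6 rose and none fell (1 at an unadjusted p below 0.05). The median was 0.86, and 0.37 with replicate 3 alone. *Klk13* read 5.57, 5.39 and 5.6 before and 11.93, 11.83 and 11.19 after (6.13), and *Klk6* rose by 5.20. Of 18 barrier lipid genes 8 rose and 1 fell, led by the sphingolipid desaturase *Degs2* (3.53) and the cholesterol sulfotransferase *Sult2b1* (2.26), with 4 rises and no fall with replicate 3 alone. Among 19 epidermal transcription factors 3 rose and 4 fell, and *Gata3* had the largest change, -2.69, from between 10.29 and 10.54 to between 7.43 and 8.18. Ligands of the EGF receptor went both ways, with *Epgn* (5.68) and *Hbegf* (3.76) higher and betacellulin (*Btc*, -2.80) lower.

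Neutrophil chemokines were among the largest rises. Of 10 measured chemokines and growth factors that attract or sustain neutrophils, 8 rose and none fell, with a median log2 fold change of 3.90, and with replicate 3 alone 7 rose. *Cxcl2* read 4.43, 4.24 and 4.64 before and 13.42, 13.57 and 13.17 after IMQ (8.95, SE 0.79, adjusted p = 1.01e-05). *Cxcl3* went from 2.66, 2.67 and 2.85 to 12.03, 11.87 and 11.85 (9.19, SE 1.08, adjusted p = 8.74e-05). *Cxcl5* went from 3.21, 3.50 and 3.04 to 10.94, 10.29 and 11.84 (7.77, SE 1.00, adjusted p = 0.000172). The untreated signals of *Cxcl3* and *Cxcl5* also lay below the 10th percentile of the arrays, where a fold change is understated. *Cxcl1* rose by 4.19, *Csf3*, the growth factor that releases neutrophils from bone marrow, by 3.89, *Ppbp*, the precursor of CXCL7, by 3.91 and *Tnf* by 1.60.

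The NF-kB motif GGANTTTCC was in 2 of the 13 promoter windows of the largest rises and in 1.3% of all 32851 windows. Both belonged to neutrophil chemokines. It began 96 bases before the start of *Cxcl2* (chr5:90903649-90903898, plus strand) and 72 bases before that of *Cxcl3* (chr5:90785851-90786100, plus strand), and their 250 bases before the start are printed 5′ to 3′ with the motif in capitals.
Cxcl2: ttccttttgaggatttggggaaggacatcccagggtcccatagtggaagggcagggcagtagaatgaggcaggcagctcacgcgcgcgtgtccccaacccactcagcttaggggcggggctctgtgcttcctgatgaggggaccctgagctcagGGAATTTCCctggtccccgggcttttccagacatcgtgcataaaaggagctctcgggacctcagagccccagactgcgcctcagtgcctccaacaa
Cxcl3: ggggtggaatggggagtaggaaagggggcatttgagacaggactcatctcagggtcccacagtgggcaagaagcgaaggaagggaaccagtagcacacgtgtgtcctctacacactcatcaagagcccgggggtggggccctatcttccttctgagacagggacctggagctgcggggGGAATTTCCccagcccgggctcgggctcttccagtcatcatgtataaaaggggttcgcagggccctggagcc

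Marker genes of neutrophils rose together. Of 19 measured markers 15 rose and none fell, the median was 3.42, and the mean signal of the list was 6.12 to 6.34 on the untreated and 9.81 to 10.07 on the IMQ arrays. With replicate 3 alone 12 rose, with a median of 3.44. By rank products 13 rose, and no marker was lower at an unadjusted limma p below 0.05. *Csf3r*, the receptor for G-CSF, read 7.21, 6.81 and 6.33 before and 10.50, 10.71 and 10.23 after (3.69, SE 0.29, adjusted p = 4.08e-06). *Trem1*, an activating receptor of neutrophils and monocytes, read 5.45, 5.23 and 5.21 before and 9.19, 9.43 and 9.39 after (4.04, SE 0.23, adjusted p = 5.42e-07). *Cxcr2*, the receptor for CXCL1, CXCL2 and CXCL5, rose by 3.00. The groups did not overlap for any of these 3 genes. *Mmp8*, neutrophil collagenase, rose by 5.73, the lectin receptors *Clec4d* and *Clec4e* by 7.56 and 6.19, and *S100a9* and *S100a8*, also made by keratinocytes, by 8.35 and 7.74. Genes of neutrophil precursors in bone marrow differed among themselves, since *Ngp* rose by 1.96 while *Mpo* read 4.35 to 4.83 before and 4.26 to 5.04 after, and *Elane* was not called (0.14, adjusted p = 0.641).

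**Figure D3:**
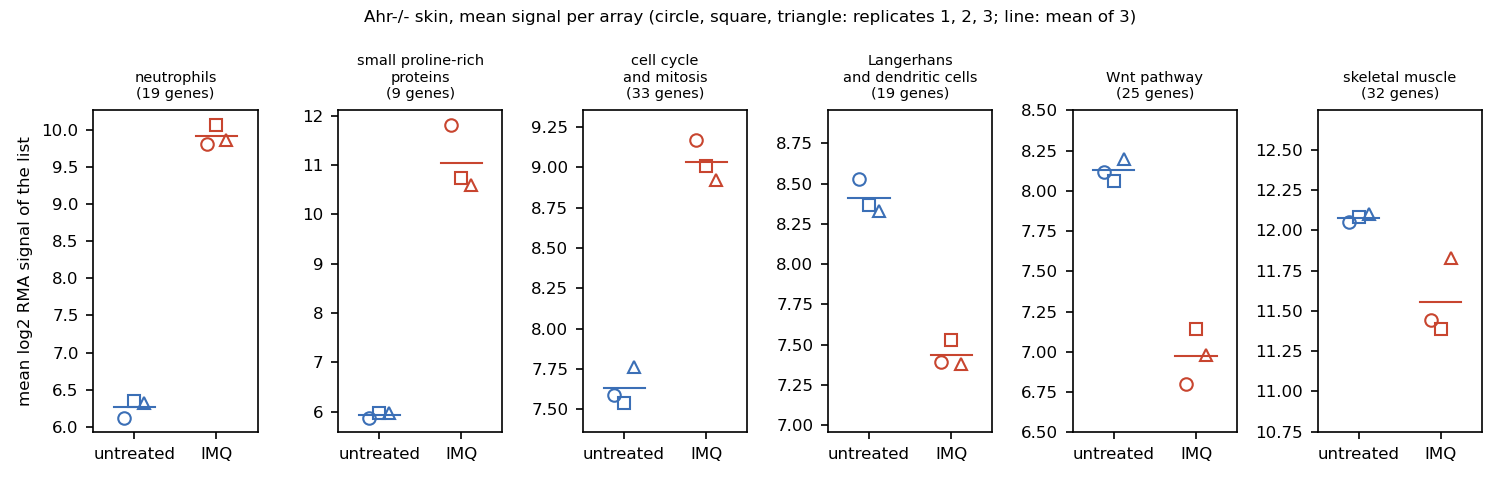
Mean log2 signal over the measured members of 6 gene lists on each *Ahr*-/- array, untreated and after IMQ. Circles, squares and triangles are replicates 1, 2 and 3, lines are group means, and the vertical ranges differ between panels. Neutrophil markers moved from between 6.12 and 6.34 to between 9.81 and 10.07, and in the muscle panel IMQ replicates 1 and 2 (11.44 and 11.39), whose *Gapdh* difference was high, lie below replicate 3 (11.83).

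Among cytokines, members of the interleukin 1 group rose in 9 of 13 genes, none fell (1 at an unadjusted p below 0.05), and with replicate 3 alone 7 rose. *Il1b* read 5.94, 5.95 and 6.92 before and 12.55, 12.69 and 12.81 after IMQ (6.41, SE 0.45, adjusted p = 1.98e-06). *Il1a* rose by 2.03, the receptor antagonist *Il1rn* by 2.06, the receptor *Il1r1* by 1.76 and *Il18rap*, a subunit of the IL-18 receptor, by 2.51. Of the interleukin 36 genes 3 of 6 rose, with *Il1f6* (IL-36 alpha) at 4.36 and *Il1f9* (IL-36 gamma) at 2.15. In the interleukin 6 family 6 of 11 genes rose, and 4 with replicate 3 alone. *Il6* went from 3.31, 3.77 and 3.81 to 9.54, 10.02 and 9.96 (6.21, SE 0.39, adjusted p = 9.61e-07), *Clcf1* rose by 3.25, oncostatin M (*Osm*) by 2.43 and the feedback inhibitor *Socs3* by 2.62. All *Il1b* and *Il6* signals after IMQ were above all those before it.

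For the interleukin 23 and 17 axis 12 of 18 listed genes were measured, and *Il17c*, *Il17f*, *Il22* and *Il23r* were among those not analysed here. Of the 12 genes 4 rose, and with replicate 3 alone only *Il24* (3.02) was called. *Il23a*, the subunit particular to IL-23, was at 1.19 with all arrays (adjusted p = 0.00868) and at 0.71 with replicate 3 alone (adjusted p = 0.186). *Il17a* read 5.36, 4.88 and 5.35 before and 5.6, 5.21 and 5.45 after IMQ, groups that overlapped (0.22, adjusted p = 0.356). Of 21 interferon-stimulated genes of the type I response 1 rose (*Irf7*, 1.35) and 1 fell (*Cmpk2*, -1.46), neither call held when *Ahr*-/- IMQ replicate 2 was left out, and with replicate 3 alone limma called none, also at an unadjusted p below 0.05, as did rank products with all arrays. The median of that list was 0.14, against 0.07 over all genes, and its mean signal was 7.83 to 8.51 before and 8.10 to 8.25 after. Toll-like receptors and their adaptors rose in 7 of 15 genes, led by the co-receptor *Cd14* (3.81) and *Tlr13* (3.00), and 3 of them rose with replicate 3 alone. Of 12 NF-kB genes 5 rose, and with replicate 3 alone only *Bcl3* (2.08) was called. Among CC chemokines 5 of 15 rose and 4 fell, the latter count being 2 without *Ahr*-/- IMQ replicate 1 or without untreated replicate 1, and 1 with replicate 3 alone. *Ccl3* went from 4.36, 4.60 and 4.76 to 11.40, 11.99 and 11.57 (7.08) and *Ccl4* rose by 3.80. The fall of *Ccl27a*, a chemokine of resting keratinocytes, was -1.23. The B-cell chemokine *Cxcl13*, grouped here with chemokines that follow interferon gamma, rose by 3.78.

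Antimicrobial and acute phase genes rose in 14 of 20 cases and fell in 1, with a median of 2.62, and with replicate 3 alone 13 rose and none fell. *Saa3* read 5.16, 5.80 and 6.06 before and 13.75, 13.98 and 13.96 after (8.22, SE 0.44, adjusted p = 2.8e-07). *Lcn2*, which binds bacterial siderophores, went from 5.63, 5.42 and 5.87 to 13.37, 13.11 and 13.30 (7.62). The defensin *Defb3* went from 4.51, 4.34 and 4.68 to 12.77, 10.03 and 9.54 (6.27). In all 3 genes the groups were separate, and for *Defb3* IMQ replicate 1 was more than 2 log2 units above the other IMQ arrays. *Slpi*, a protease inhibitor, rose by 5.95, *Defb4* by 4.11 and *Ptx3*, a soluble pattern receptor, by 4.13. Stefins, inhibitors of cysteine proteases, rose in 3 of 4 measured genes, led by *Stfa2l1* (8.13). Of the enzymes of itaconate, arginine and prostaglandin metabolism in myeloid cells 7 of 13 rose and 2 fell. *Hdc*, the enzyme of histamine synthesis, went from 5.33, 5.52 and 5.52 to 11.60, 12.02 and 11.51 (6.25), *Acod1*, which makes itaconate, rose by 6.05 and *Ptgs2*, the inducible cyclooxygenase, by 5.13. *Arg1* fell by 1.94, a call lost with replicate 3 alone (adjusted p = 0.0786), and *Nos2* was not called (0.07, adjusted p = 0.815).

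**Figure D4:**
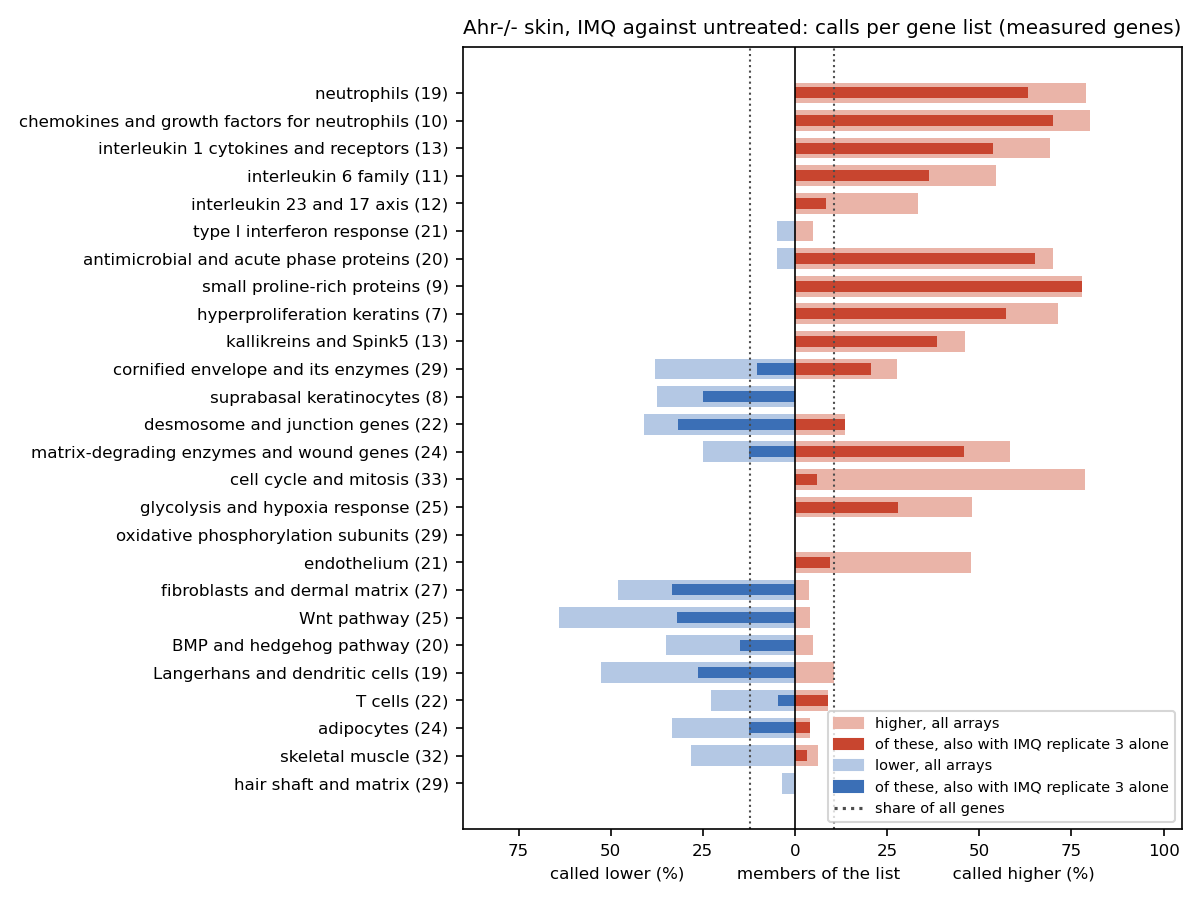
Percentage of the measured members of 26 gene lists called higher (bars to the right) or lower (to the left) in *Ahr*-/- skin after IMQ, with the number measured beside each list name. Dark inner bars are the calls with replicate 3 alone and dotted lines the shares of all genes. SPRR genes (7 of 9) and neutrophil markers (15 of 19) lie far to the right of the 10.6% of all genes, and Wnt genes (16 of 25) and the markers of Langerhans and dendritic cells (10 of 19) far to the left of the 12.1%.

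Markers of antigen-presenting cells were lower. Of 19 markers of Langerhans and dendritic cells 10 fell and 2 rose, with a median of -0.71, and with replicate 3 alone 5 fell and none rose. The rises were down to 1 without *Ahr*-/- IMQ replicate 1 or without untreated replicate 1 or 2. The class II genes led the falls. *H2-Aa* read 13.56, 13.47 and 13.45 before and 10.55, 10.91 and 10.90 after IMQ (-2.70, SE 0.25, adjusted p = 1.79e-05), *H2-Ab1* fell by 2.76 and *H2-Eb1* by 2.96. The invariant chain *Cd74* was at -3.21, with adjusted p = 0.0561 when replicate 3 was the only IMQ array. *Cd207* (langerin), a marker of Langerhans cells but not of them alone, read 8.90, 8.64 and 9.05 before and 7.85, 7.02 and 7.04 after (-1.56, SE 0.31, adjusted p = 0.00296). *Mgl2* of dermal dendritic cells and macrophages went from between 11.60 and 11.88 to between 5.82 and 6.25. Monocyte and macrophage markers were mixed, with 5 of 21 higher, among them *Fcgr4* (2.95) and *Msr1* (2.26), and 3 lower. The count of lower markers was 0 without *Ahr*-/- IMQ replicate 1, without IMQ replicate 2 and without untreated replicate 1 or 2, and 1 without IMQ replicate 3.

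Of 22 T-cell markers 2 rose and 5 fell, and with replicate 3 alone 2 rose and 1 fell. The granzymes *Gzma* and *Gzmb*, effectors of cytotoxic and natural killer cells, rose by 3.23 and 2.12. The granzyme *Gzmc* of the same list was not called higher, and its log2 fold change minus that in *Ahr*+/- skin was -3.78. *Gzma* read 6.07, 6.21 and 6.27 before and 9.38, 8.81 and 10.05 after. *Cd3g*, a chain of the T-cell receptor complex, fell by 2.40, from 7.22, 7.31 and 7.68 to 5.29, 5.03 and 4.67. For T cells the count of falls was 3 without *Ahr*-/- IMQ replicate 3, and also 3 without untreated replicate 1 or without untreated replicate 3. In the B lineage 2 of 7 markers fell, the immunoglobulin joining chain *Jchain* from 9.73, 9.59 and 9.5 to 5.02, 5.56 and 4.60 (-4.55) and the IgM heavy chain *Ighm* by 2.92. Of 10 mast cell markers 2 rose, led by the IgE receptor chain *Fcer1a* (2.82), and 3 fell. The fall count was 1 without *Ahr*-/- IMQ replicate 2, and likewise without IMQ replicate 3 or untreated replicate 1, and no mast cell marker fell with replicate 3 alone.

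Matrix-degrading enzymes and wound genes rose in 14 of 24 cases and fell in 6, with a median of 1.24, and with replicate 3 alone 11 rose and 3 fell. *Mmp13*, interstitial collagenase, read 3.95, 3.87 and 3.57 before and 8.69, 9.44 and 10.67 after (5.80, SE 0.67, adjusted p = 7.67e-05). *Tnc*, a matrix protein of healing wounds, went from 7.12, 7.47 and 6.78 to 12.88, 12.78 and 12.97 (5.75), and *Timp1*, an inhibitor of these proteases, rose by 4.49. *Fn1* and *Timp3* fell by 2.42 and 2.54. Genes of fibroblasts and the dermal matrix fell in 13 of 27 cases, 9 with replicate 3 alone, and the median was -0.72. *Ogn*, a small leucine-rich proteoglycan, went from 12.07, 12.18 and 12.20 to 8.30, 8.73 and 9.42 (-3.33), fibromodulin (*Fmod*) fell by 2.39 and the collagen *Col14a1* by 1.99. In the endothelial list 10 of 21 genes rose and none fell (1 at an unadjusted p below 0.05), but 5 rose without *Ahr*-/- IMQ replicate 2, 6 without untreated replicate 2 and 2 with replicate 3 alone. *Selp*, the selectin that slows leukocytes on the vessel wall, rose by 2.52, from between 6.99 and 7.32 to between 9.06 and 10.32.

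Genes of the Wnt and BMP pathways maintain epidermal and hair follicle progenitors. Of 25 Wnt genes 16 fell and 1 rose, with a median of -1.14, and with replicate 3 alone 8 fell and none rose. *Axin2*, a common target of Wnt signalling, read 8.97, 8.87 and 8.86 before and 7.79, 7.58 and 7.47 after IMQ (-1.29, SE 0.15, adjusted p = 7.13e-05). *Sostdc1*, an inhibitor of BMP and Wnt signals, went from 10.59, 10.44 and 10.63 to 6.88, 7.62 and 7.92 (-3.08). *Lgr6*, a marker of epidermal stem cells, fell by 2.74, and the secreted antagonists *Dkk2* and *Sfrp2* by 2.75 and 2.68. For *Axin2* and *Sostdc1* every IMQ array lay below every untreated array. Of 20 BMP and hedgehog genes 7 fell, 1 rose and 12 were not called, led by *Bmp2* (-2.24) and *Bmp4* (-1.55), with 3 falls with replicate 3 alone. Of 29 hair shaft and matrix genes 1 was called, *Krt32* (-1.44), and this call was lost whenever any single *Ahr*-/- array was left out.

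Genes of cell division were higher with all arrays. Of 33 measured genes 26 rose and none fell, and all 33 had a fold change above 0, with a median of 1.34. *Rrm2*, a subunit of ribonucleotide reductase, read 8.94, 8.98 and 9.01 before and 11.60, 11.45 and 11.16 after IMQ (2.43, SE 0.40, adjusted p = 0.000925). *Cdc20*, an activator of the anaphase-promoting complex, rose by 2.22. With replicate 3 alone the median was 1.30 but only 2 genes were called, against 16 at an unadjusted p below 0.05. These were *Aurka* (a mitotic kinase, 2.05 with all arrays) and *Mcm3* (a subunit of the replicative helicase, 1.73). The count was 17 without *Ahr*-/- IMQ replicate 1 and 8 with the *Gapdh* covariate.

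Metabolic genes rose in part. Glycolysis and hypoxia genes rose in 12 of 25 cases and 7 with replicate 3 alone, led by the glucose transporters *Slc2a3* (2.68) and *Slc2a1* (1.97). Of 17 genes of the NRF2 and heat shock responses 7 rose, and 6 with replicate 3 alone. The cystine transporter *Slc7a11* read 4.15, 3.96 and 4.21 before and 8.92, 8.90 and 8.57 after (4.69, SE 0.22, adjusted p = 1.45e-07), the glutathione transferase *Gsta4* rose by 4.80 and the metallothionein *Mt1* by 3.12. Sterol synthesis genes rose in 9 of 18 cases, in 5 without *Ahr*-/- IMQ replicate 1 or without untreated replicate 2, and in 2 with replicate 3 alone, namely *Hsd17b7* (1.85) and *Cyp51* (1.36). The unfolded protein response list had 8 rises of 16, but 2 with replicate 3 alone, *Asns* (1.77) and *Atf4* (0.82). It had 5 without *Ahr*-/- IMQ replicate 1, 3 without IMQ replicate 2 or untreated replicate 2, and 2 without untreated replicate 1. None of 29 oxidative phosphorylation genes was called by limma in either direction, none had an unadjusted p below 0.05, rank products called none, and their median was -0.06.

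Of 24 adipocyte genes 8 fell and 1 rose, and 3 fell with replicate 3 alone. Among the genes shared with sebaceous glands, the fatty acid elongase *Elovl3* rose by 2.81 while the desaturase *Scd1* fell by 1.05. *Elovl5*, on the sebaceous gland list only, fell by 2.03. The adipocyte fall count was 5 without *Ahr*-/- IMQ replicate 1 and 5 without untreated replicate 1. Of 32 skeletal muscle genes 2 rose with all arrays and 1 with replicate 3 alone. The rises numbered 1 without *Ahr*-/- IMQ replicate 2 or 3 or untreated replicate 3, and 0 without any other single array. The falls numbered 9 with all arrays, 3 without *Ahr*-/- IMQ replicate 1, 3 without IMQ replicate 2, 5 without untreated replicate 1, 4 without untreated replicate 3 and none with replicate 3 alone, where 3 were lower at an unadjusted p below 0.05. The mean signal of the muscle list was 12.05 to 12.10 before IMQ and 11.44, 11.39 and 11.83 after it, so the arrays with the high *Gapdh* difference were the lowest. Its part in the muscle counts was not tested.

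The list of AhR targets was nearly balanced. Of 9 measured genes 2 rose and 2 fell, the latter including *Ahr* itself, and the median was near 0. *Tiparp*, an AhR target that ADP-ribosylates the receptor, rose by 1.22, from 9.05, 9.41 and 9.34 to 10.74, 10.45 and 10.29. *Aldh3a1*, a dehydrogenase, went from 9.10, 8.61 and 8.91 to 8.03, 6.76 and 6.87 (-1.65). The groups of both genes did not overlap, and both calls held with replicate 3 alone. *Nqo1* was at 0.62, and its call was lost without *Ahr*-/- IMQ replicate 1 and without 4 other single arrays. *Cyp1b1*, the CYP1 enzyme of fibroblasts, was not called (0.15, adjusted p = 0.769). Among 17 circadian clock genes 3 rose and 5 fell, with *Bhlhe40* at 1.23 and *Hlf* at -1.40 called also with replicate 3 alone. Of these falls 3 were left without any single IMQ array or without untreated replicate 2, and 2 without untreated replicate 1.

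Of 11 measured S100 genes 3 rose, among them *S100a8* and *S100a9*, and 2 did with replicate 3 alone. Of 9 clade B serpins, inhibitors of proteases inside cells, 2 rose, *Serpinb6c* (3.90) and *Serpinb3a* (3.80), and 2 fell, a count of 1 without any single array except *Ahr*-/- IMQ replicate 3. Of 16 complement genes 2 rose and 1 fell, and the rises numbered 0 without *Ahr*-/- IMQ replicate 3 and 1 without any other single array but IMQ replicate 2. Over all genes 10.6% rose and 12.1% fell, so the small counts in this paragraph are not read as results about the lists. Melanocyte markers fell in 2 of 10 cases, led by *Dct*, an enzyme of melanin synthesis (-2.27), and Schwann cell markers in 2 of 8, led by the myelin gene *Mbp* (-1.86), and neither call held with replicate 3 alone. Of 13 sebaceous gland genes 3 rose and 5 fell, and with replicate 3 alone 1 rose and 3 fell.

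The response of *Ahr*-/- skin was then set against that of *Ahr*+/- skin, gene by gene, by testing the difference between the log2 fold changes of the genotypes in the same limma fit. It was more positive in *Ahr*-/- skin for 98 genes (0.539%) and more negative for 143 genes (0.786%). With replicate 3 as the only *Ahr*-/- IMQ array 15 and 3 genes were called, and with the *Gapdh* covariate 11 and 1. Of the 98 genes 93 rose in *Ahr*-/- skin and 7 fell in *Ahr*+/- skin, and of the 143 genes 129 fell in *Ahr*-/- skin and 20 rose in *Ahr*+/- skin. Most genes called in both genotypes moved the same way, 631 higher and 478 lower in both against 11 in opposite directions. Leaving out 1 array at a time moved most of these counts by more than 1.5 times. Without *Ahr*-/- IMQ replicate 1, 2 or 3, there were 60, 41 and 295 more positive and 62, 26 and 323 more negative responses. Without *Ahr*-/- untreated replicate 1, 2 or 3, there were 22, 46 and 52 more positive and 9, 50 and 32 more negative ones. The *Ahr*+/- arrays were left out as a choice made after seeing the data. Without *Ahr*+/- IMQ replicate 1, 2 or 3, the more positive responses numbered 138, 23 and 37 and the more negative ones 259, 11 and 22. Without *Ahr*+/- untreated replicate 1, 2 or 3, they numbered 254, 134 and 56, and 688, 121 and 52.

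**Figure D5:**
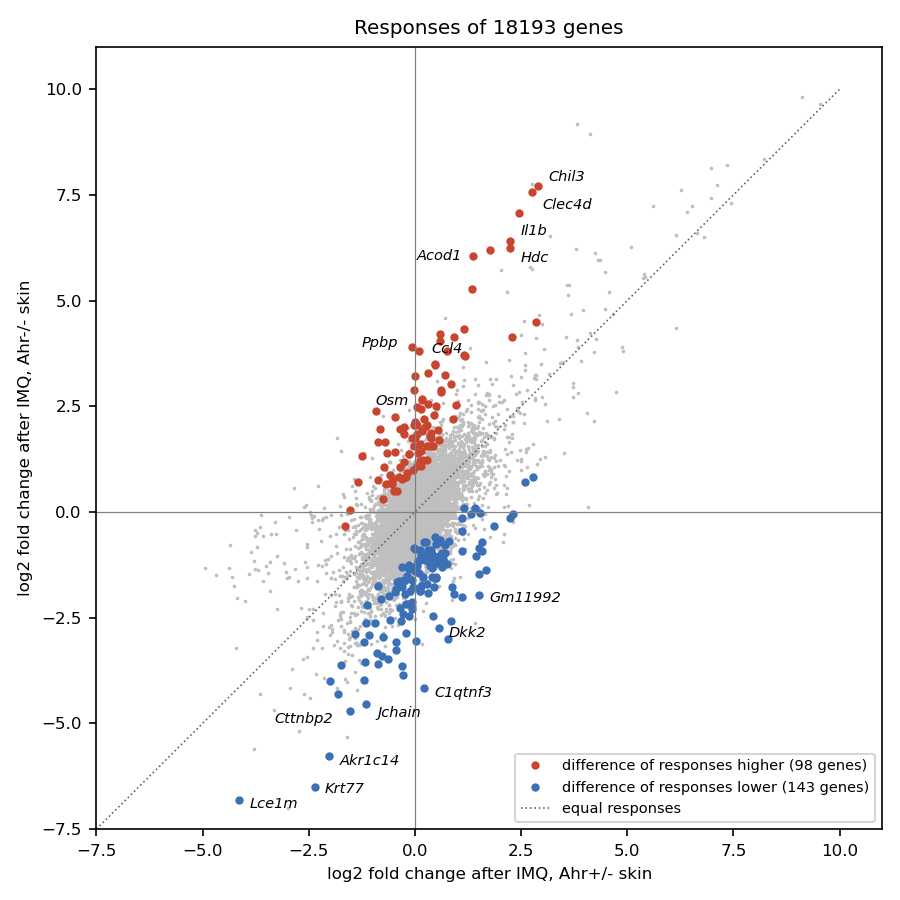
Log2 fold change after IMQ in *Ahr*-/- skin (vertical) against that in *Ahr*+/- skin (horizontal) for 18193 genes, with 1 point for each gene and the dotted line at equal responses. The 98 genes whose response was called more positive in *Ahr*-/- skin and the 143 called more negative are coloured, with *Chil3* (7.72 against 2.91) and *Krt77* (-6.51 against -2.36) among the labelled ones.

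Myeloid genes led the more positive responses. Of the 19 neutrophil markers 7 were called higher in the difference of responses and none lower, the median difference was 2.29, and 7 of the 19 rose in *Ahr*+/- skin against 15 in *Ahr*-/- skin. The mean signal of this list after IMQ was 9.81 to 10.07 in *Ahr*-/- skin and 7.46 to 8.54 in *Ahr*+/- skin, after like values without treatment (6.12 to 6.34 and 6.10 to 6.36). Not all 7 calls held in the other settings. *Clec4d* differed by 4.81, by 4.64 with replicate 3 alone and by 4.64 with the *Gapdh* covariate, where limma no longer called it (adjusted p = 0.218). *Ppbp* read 4.32, 4.38 and 4.45 before and 8.62, 7.27 and 9.0 after IMQ in *Ahr*-/- skin, while its fold change in *Ahr*+/- skin was -0.07, and the difference of responses was 3.97. *Ccl4* read 6.35, 6.5 and 6.68 before and 10.04, 11.20 and 9.69 after, against a change of 0.09 in *Ahr*+/- skin, and *Osm* rose by 2.43 against 0.15. For each of these 3 genes all IMQ arrays of *Ahr*-/- skin lay above all its untreated arrays. The calls of *Ppbp*, *Ccl4* and *Osm* held without any single array of the 12, with replicate 3 alone and with the *Gapdh* covariate. The same was true of *Plaur*, *Trem1*, *Cd177*, *Olfm4*, *Nfe2*, *Rrad* and *Sycp2*, which were chosen for this stability after their values were seen. *Cd177*, a surface protein of neutrophils, read 4.07, 4.27 and 4.54 before and 7.54, 7.98 and 7.01 after in *Ahr*-/- skin, against 4.35 to 4.52 and 4.33 to 4.53 in *Ahr*+/- skin.

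Among the more negative responses were 3 of the 8 suprabasal keratinocyte genes (*Krt77*, *Krt10* and *Krt1*), and these calls were lost with replicate 3 alone. In the sebaceous gland and adipocyte lists limma called no difference in either direction. At an unadjusted p below 0.05 the response was more negative for 10 of 13 sebaceous gland genes and 12 of 24 adipocyte genes. It was more positive at that level for 1 and 0 of them. Their median differences were -0.98 and -0.55, and some genes are on both lists. Other lists without a called difference leaned either way. At that level the response was more negative for 9 of 19 Langerhans and dendritic cell markers (1 more positive). The same held for 5 of 9 clade B serpins and 4 of 6 interleukin 36 genes (0 more positive in each). The response was more positive for 4 of 12 NF-kB genes and 4 of 21 endothelial genes (0 more negative in each). The share of all genes at that level was not counted, so these counts are not read as results about the lists. *Cttnbp2*, which encodes a cortactin-binding protein, went from 9.61, 9.93 and 9.42 to 5.12, 4.78 and 4.96 in *Ahr*-/- skin (-4.70), against -1.54 in *Ahr*+/- skin. These values are of 1 of its 2 probe sets, and the mean of both changed by only -2.56 in *Ahr*-/- skin. *Aspn*, a matrix proteoglycan chosen after its values were seen, read 9.59, 9.52 and 9.98 before and 6.04, 6.56 and 7.38 after (-3.04), against 0.02 in *Ahr*+/- skin. Both calls held without any single array. *Gm11992* fell by 1.97 in *Ahr*-/- skin and rose by 1.51 in *Ahr*+/- skin. Among the more negative responses, only its call held both with replicate 3 alone and with the *Gapdh* covariate. Some of these genes already differed before treatment. *Jchain* read 9.5 to 9.73 on the untreated *Ahr*-/- arrays and 4.53 to 7.08 on the untreated *Ahr*+/- arrays, and *Gm11992* 6.19 to 6.26 and 4.79 to 5.29. For *Cttnbp2* these ranges were 9.42 to 9.93 and 8.66 to 9.02. Hair shaft genes had a median of -2.59 in *Ahr*+/- skin and -0.36 in *Ahr*-/- skin, with mean signals of 7.95 to 11.56 on the untreated *Ahr*+/- and 5.97 to 7.28 on the untreated *Ahr*-/- arrays, and none of the 29 was called in limma's difference of responses, where 7 were higher at an unadjusted p below 0.05.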

How the data were processed

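RNA of whole mouse skin had been hybridised by the authors to 12 Affymetrix mouse genome arrays, 3 for each of 4 groups. The deposited values were log2 signals, which the authors had normalised by RMA (affy package for R, version not given in the sources used here). Log2 signals of different probe sets cannot be compared, because probes bind with unequal strength. Of 45101 probe sets, 64 controls, 932 with several genes and 9160 without a gene symbol in the platform annotation were left out, and 34945 probe sets named 18193 genes, of which 18032 matched RefSeq. For the 9010 genes with more than 1 probe set the one with the highest mean signal over the 12 arrays was kept. Arrays give no read depth, and 3 per group limit the precision. The labels do not say whether the replicates were processed separately, so p-values measure the spread between these arrays.

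Group means of the 4 groups were fitted to all genes with limma 3.58.1 in R 4.3.3 (8 residual and 4.44 prior degrees of freedom), and p-values were adjusted by Benjamini-Hochberg over all genes. Calls needed an adjusted p below 0.05 and a fold change of 1.5. Values are log2 fold changes, IMQ minus untreated, with the standard error (SE). The scripts were tested on simulated data. Rank products (percentage of false positives below 0.01 from 100 permutations), other scalings, probe set means, a minimum signal of 5, covariates and left-out arrays were tried as alternatives. Same-numbered arrays of the 2 *Ahr*-/- groups correlated in their deviations from the group means at 0.16, 0.06 and 0.15. Differently numbered ones correlated at -0.18 to 0.06. The numbers were not taken to pair the arrays, and replicate number as a block was tried as an alternative.

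The comparison and the gene lists were chosen with earlier results of these data known. Named genes were the 15 largest rises and falls with separate groups, up to 4 called members of each list by size of change (2 where none was called), *Ahr*, and the 8 largest differences of responses each way. Genes named beyond this rule, such as *Lor*, *Csf3r*, *Trem1*, *Cxcr2*, *Il17a*, *Mpo*, *Krt5* and *Cyp1b1*, were chosen after their values were seen. Promoter windows came from a RefSeq table of GRCm38.p6, searched with Python 3.11.15.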

Additional observations from a re-analysis of the deposited data

Results flagged for a closer look

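Results are listed here because the response to IMQ differed between the genotypes in limma's test of the difference (adjusted p below 0.05, difference at least 1.5-fold), among the genes named above. Each value is the log2 fold change in *Ahr*-/- skin minus that in *Ahr*+/- skin.

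The difference was positive for the myeloid and cytokine genes *Chil3* (4.81), *Clec4d* (4.81), *Acod1* (4.67), *Ccl3* (4.62), *Clec4e* (4.43), *Il1b* (4.17), *Hdc* (4.02), *Ppbp* (3.97), *Ccl4* (3.70), *Cd14* (3.06), *Osm* (2.28) and *Il18rap* (2.01). It was also positive for the glucose transporter *Slc2a3* (2.51), the transcription factor *Nfil3* (2.05) and *Timp1* (1.64).

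It was negative for the epidermal genes *Krt77* (-4.15), *Krt1* (-2.98), *Krt10* (-2.85) and *Lce1m* (-2.66). Other negative differences were those of *C1qtnf3* (-4.38), *Gzmc* (-3.78), *Akr1c14* (-3.76), *Aadacl2fm1* (-3.57), *Gm11992* (-3.48), *Jchain* (-3.41), *Ces1f* (-3.41), *Dkk2* (-3.31), *Cttnbp2* (-3.16), *Sema3d* (-2.49), *Ogn* (-2.44), *Sostdc1* (-1.89) and *Ighm* (-1.85).

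Of these genes *Cttnbp2*, *Il18rap*, *Osm*, *Ccl4*, *Hdc*, *Acod1*, *Ppbp* and *Gm11992* kept the call without any 1 of the 12 arrays. With the *Gapdh* covariate *Osm*, *Ccl4*, *Ppbp* and *Gm11992* kept it too. *Cttnbp2* (-3.18, limma adjusted p = 0.155) and *Il18rap* (1.92, adjusted p = 0.129) lost it there, as did *Il1b*, *Chil3*, *Clec4d* and *Lce1m*. The differences with replicate 3 alone were -3.15 for *Cttnbp2* and 1.89 for *Il18rap*. Before treatment the arrays of the genotypes already did not overlap for several of them, among them *Gm11992*, *Jchain*, *Ces1f*, *Cttnbp2* and *Sema3d*. Untreated *Sema3d* read 10.38 to 10.86 in *Ahr*-/- and 9.21 to 10.15 in *Ahr*+/- skin. *Ces1f*, a carboxylesterase, read 8.37 to 8.51 on the untreated *Ahr*-/- and 4.92 to 6.99 on the untreated *Ahr*+/- arrays.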

How the results depend on the processing

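With *Ahr*-/- IMQ replicate 3 alone 618 genes rose and 826 fell in *Ahr*-/- skin, with 15 larger and 3 smaller responses than in *Ahr*+/- skin. The *Gapdh* covariate gave 1007, 1219, 11 and 1, and rank products called 192 higher and 168 lower. At an adjusted p below 0.01, 1255 genes were higher, and 19 more positive and 8 more negative responses were called. Leaving out 1 array at a time gave 1489 to 2168 higher and 1734 to 2196 lower genes. It gave 22 to 295 more positive responses and 9 to 688 more negative ones. The *Ahr*+/- arrays among these were left out after seeing the data. The cause of these shifts was not tested. Replicate number as a block gave 1934, 2211, 88 and 133, within 1.5 times of the main counts, and ended the call of 2 of 193 named genes in *Ahr*-/- skin. Of those 193 calls 139 held with replicate 3 alone, 156 with the *Gapdh* covariate, 111 by rank products and 173 to 184 without 1 array, and no direction reversed. Centring the arrays on their medians moved the median of all genes from 0.07 to 0.10. Signals near background or near the top of the scale limit what these arrays can show.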
